A study of Rattus norvegicus with 12 samples.

Results

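The genes described here are the Hox cluster genes of the rat, measured in bone of the skull roof. They were taken as every array probe, other than control spots, whose gene name is Hoxa, Hoxb, Hoxc or Hoxd followed by a paralogue number. This gave 49 probes for 36 genes, of 45598 probes and 34912 gene names on the array. The A cluster was represented by 8 genes, the B cluster by 10, the C cluster by 9 and the D cluster by 9, and 12 of the 36 genes had more than 1 probe. Hoxa5, Hoxa9 and Hoxa10 were not analysed here.

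Hox genes code for transcription factors that bind DNA through a homeodomain, and they lie in clusters whose gene order follows the order of their expression along the body axis. Genes of low paralogue number act towards the head and genes of high number towards the tail and the ends of the limbs, mostly together with Pbx and Meis cofactors, while Polycomb and Trithorax complexes keep them silent or active. The bones of the skull roof come from rostral neural crest and head mesoderm, tissues known for the absence of Hox expression, whereas several Hox genes, Hoxa7 among them, are known from blood cell precursors.

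Total RNA of calvaria from rats 10 weeks old was hybridised to 12 one-colour (Cy3) Agilent arrays, 4 for each of 3 groups. In the bur group a defect of 8 by 3 mm had been drilled, and in the laser group the same area had been ablated with an Er:YAG laser, whose infrared pulses remove mineralised tissue, at 127 mJ per pulse and 20 Hz. In the control group bone was not ablated; the treatment protocol has the periosteum removed there, while the series design names the group non-treated. The labels place all samples at the 72 h time point, no strain or genotype is given, and nothing states that the 4 samples of a group came from different animals, so a p-value here speaks for the spread among these arrays, and that spread may be technical.

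Levels are log2 of the processed spot intensity minus log2 of the array's 75th percentile, so that 0 is the level of a bright probe and -6 is far below it. A probe was taken as measured on an array where the scanner software called it well above background. The 75th percentile of intensity was 674 to 836 on control arrays, 811 to 1311 on bur arrays and 725 to 1158 on laser arrays, and 58.1% to 60.0% of all probes were well above background on control arrays, against 63.0% to 67.0% on bur arrays and 59.8% to 65.5% on laser arrays. Control arrays shared a slide and scan, and the 8 treated arrays shared another, so in both comparisons with control the slide and scan cannot be told apart from the treatment. On the treated slide the bur arrays lay in column 1 and the laser arrays in column 2. In laser against bur the slide column therefore cannot be told apart from the treatment. On the first principal component of all genes, which held 49.5% of the variance, control replicate 3 stood at -6.67, next to the treated arrays at 7.43 to 53.1 and away from the other control arrays at -122 to -55.5. The tissue label was borne out by osteoblast markers: all 7 listed were measured, and their summed signal was 463 to 652 times the 75th percentile in control, 440 to 640 in bur and 513 to 668 in laser. The summed skeletal muscle signal was 5.83 on control replicate 1, 3.98 on bur replicate 1 and 1.46 on laser replicate 1, in units of the array's 75th percentile, and lower on each of the 9 other arrays; its part in the Hox values of these arrays was not tested.

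The probes behind the results are 60 bases long. The following lines give the whole probe of 6 measured genes, 5′ to 3′ as deposited, because most of them lie in the coding parts that mark a Hox gene. In capitals is either the homeobox stretch CGNATGAA, which codes for part of the end of the recognition helix, or the stretch CCNTGGATG, which codes for the core of the hexapeptide that binds Pbx proteins. Positions are those of genome build rn4 in the files.
Hoxa7, chr4:80517304-80517363: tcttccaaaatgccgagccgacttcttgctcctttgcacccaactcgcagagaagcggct
Hoxd12, chr3:57291311-57291370: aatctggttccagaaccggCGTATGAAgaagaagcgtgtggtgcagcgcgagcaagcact
Hoxc6, chr7:141774182-141774241: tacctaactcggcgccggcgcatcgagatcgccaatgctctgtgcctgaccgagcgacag
Hoxc8, chr7:141754654-141754713: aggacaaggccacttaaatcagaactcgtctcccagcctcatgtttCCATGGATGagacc
Hoxd3, chr3:57361082-57361141: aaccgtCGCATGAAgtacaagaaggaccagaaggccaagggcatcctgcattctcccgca
Hoxb2, chr10:85086736-85086795: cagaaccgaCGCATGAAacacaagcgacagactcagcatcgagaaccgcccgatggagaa

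The homeobox stretch, searched on both strands, was in 3 of the 49 Hox probes (6.12%) and in 139 of all 45598 probes (0.305%). The 3 were the probes of Hoxb2, Hoxd3 and Hoxd12 printed above, and each was measured on 4 or more arrays. The hexapeptide stretch was in the probes of Hoxb3 and Hoxc8, 4.08% of Hox probes, and in 0.215% of all probes. Between probes of different Hox genes, with an overlap of at least 40 bases and no gaps, the most alike pair had 35 bases in common (Hoxc6 and Hoxc9), and the next was Hoxd12 with Hoxc12, at 34. The Hoxc9 and Hoxc12 probes were not well above background on any array, whereas the Hoxd12 probe was on all 12. Both Hoxb6 probes have the same sequence, and the coordinates of the Hoxa3 probe run opposite to those of the 11 other A cluster probes.

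Most Hox genes were not measured in this bone by the call well above background. With a weaker flag of the scanner software most were detected, 61.1% in control against 72.3% of all gene names. In control bone, 6 of 36 Hox genes (16.7%) had a probe well above background on at least 3 of 4 arrays, against 57.6% of all gene names. The count was 11 (30.6%, against 62.6%) after bur drilling and 10 (27.8%, against 59.7%) after laser ablation. Control bone held Hoxa7, Hoxb4, Hoxc6, Hoxc8, Hoxd3 and Hoxd12, and 5 of these, all but Hoxd3, were detected in every group. Counts of Hox probes well above background were 7 to 11 of 49 on control arrays, 13 to 17 on bur arrays and 10 to 14 on laser arrays. The level needed for that call differed between arrays, and array brightness moved with the groups as given above. With 1 level for all arrays, -6.30 on the log2 scale, 6 Hox genes were detected in each of the 3 groups, an alternative chosen after seeing the data.

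By cluster, 1 of 8 A genes, 2 of 10 B genes, 3 of 9 C genes and 6 of 9 D genes were detected in at least 1 group. The D cluster thus held 6 of the 12 Hox genes detected anywhere: Hoxd3, Hoxd4, Hoxd8, Hoxd9, Hoxd10 and Hoxd12. In control bone alone it held 2 of 9, as the C cluster did, against 5 of 9 in bur and 5 of 9 in laser. These counts rest on a call whose level differed between arrays. With 1 level for all arrays, -6.30, the count over all clusters was 6 Hox genes in each group. Hoxd4, Hoxd8, Hoxd9 and Hoxd10 reached 3 of 4 arrays in the treated groups only. In control they were well above background on 1, 2, 1 and 2 arrays, in that order. None of them differed from control in the test given below. By paralogue number, the anterior genes (1 to 3) gave 2 of 8, the central genes (4 to 8) 7 of 14 and the posterior genes (9 to 13) 3 of 14. No gene of paralogue number 11 or 13 was detected in any group, and paralogue 8 was the only number with more than 1 detected member besides 4, through Hoxc8 and Hoxd8, and Hoxb4 and Hoxd4. Of the other genes, 13 were not well above background on any array: Hoxa3, Hoxa6, Hoxb1, Hoxb3, Hoxb7, Hoxb8, Hoxb13, Hoxc9, Hoxc11, Hoxc12, Hoxd1, Hoxd11 and Hoxd13. A further 10 were so on 1 to 3 arrays only, among them Hoxa2, Hoxa4, Hoxa11, Hoxa13, Hoxb5, Hoxb6, Hoxb9, Hoxc4 and Hoxc13.

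**Figure D1:**
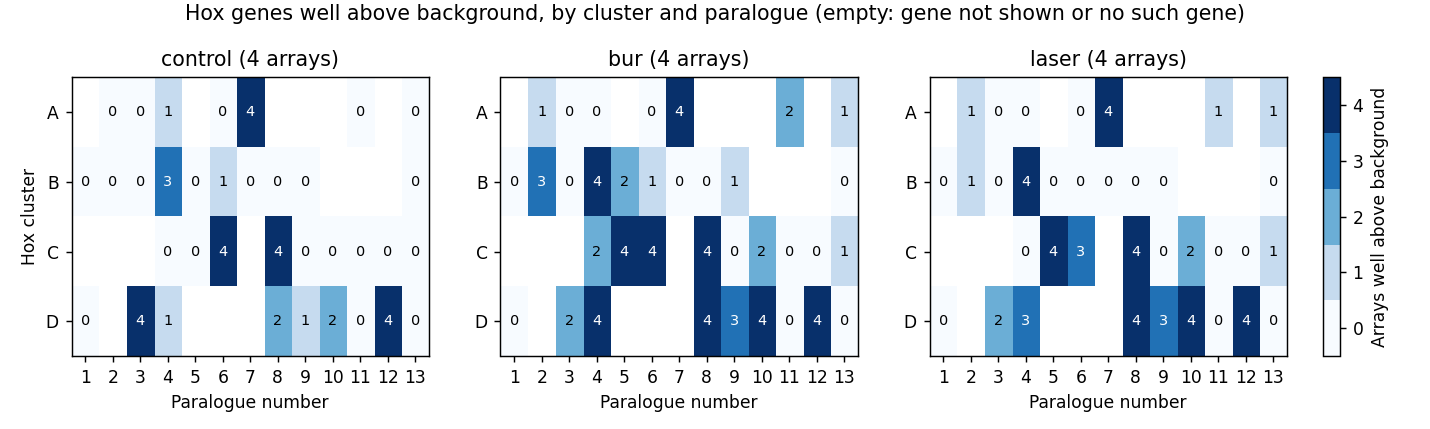
Number of arrays, of 4 in each group, on which the Hox gene's best probe was well above background, by cluster (vertical axis) and paralogue number (horizontal axis). In bur and laser the cells at 3 or 4 arrays lie mostly in the centre of the clusters and along the D cluster. Both groups hold more such cells than control (11 and 10 against 6 genes), where 2 of the 9 D genes reach 3 or 4 arrays.

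For 13 genes with 14 probes the background call was passed on 4 or more of the 12 arrays, and these were tested for treatment. They were Hoxa7, Hoxb2, Hoxb4, Hoxc5, Hoxc6, Hoxc8, Hoxc10, Hoxd3, Hoxd4, Hoxd8, Hoxd9, Hoxd10 and Hoxd12. Of the 6 tested genes with 2 probes, only Hoxc6 had both pass: the other probe of Hoxb2, Hoxc10, Hoxd3 and Hoxd8 was well above background on 0 arrays and that of Hoxd4 on 2, so these genes rest on 1 of their probes. This filter can let a gene pass through 1 group alone, so counts among the 13 are not counts of all 36. Differences were tested with limma on all 12 arrays, with Benjamini-Hochberg adjustment over 22718 genes. After laser ablation 3 of the 13 changed, Hoxc5 upward and Hoxa7 and Hoxd12 downward, where 22.3% of all tested genes passed (9.26% higher, 13% lower). After bur drilling the count was also 3 of 13, in the same directions, where 26.2% of all tested genes passed (9.99% higher, 16.2% lower). Both shares lie near those of all genes, and both comparisons use the same control samples. The median difference of the 13 genes was 0.13 for laser and 0.12 for bur, beside 0.017 and -0.0001 for all genes tested. Values did not overlap between the groups for 1 of the 13 genes in laser against control (19% of all genes) and for 3 in bur against control (25.3%). At an unadjusted p under 0.05, 3 of the 13 passed for laser (38.9% of all genes) and 5 for bur (41%).

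Hoxa7, a gene of the central group known from blood cell precursors and posterior patterning, had the largest fall from control among the 13. Its levels were -1.88, -3.57, -5.68 and -1.71 in control, -6.01, -5.49, -6.59 and -5.80 in bur, and -4.54, -5.91, -6.34 and -5.79 in laser. Control replicates 1, 2 and 4 were above every treated array, and control replicate 3 lay among them, so the groups overlapped. Hoxa7 was lower after laser ablation (log2 difference -2.43, SE 0.75, adjusted p = 0.0395, limma) and after bur drilling (log2 difference -2.76, SE 0.75, adjusted p = 0.0221). With another background correction (normexp) the differences were -1.11 and -1.43, both past the threshold.

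The laser call of Hoxa7 did not hold when single arrays were left out. It passed in 4 of 12 such fits, and the adjusted p was above the threshold without control replicate 1, 2 or 4, bur replicate 1 or 4, or laser replicate 2, 3 or 4, reaching 0.114 without control replicate 1 (difference -1.99). It was 0.0871 when only the laser and control arrays were fitted. The bur call passed in 9 of 12, and was lost without control replicate 1 (0.0666), control replicate 4 (0.0586) or bur replicate 3 (0.0584). Without control replicate 1, laser calls over all genes fell as well, from 2103 higher and 2958 lower to 448 and 798.

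Hoxd12, a posterior gene of the D cluster that acts in limb ends and the tail region, also fell, and its control arrays ranked as those of Hoxa7 did. Its levels were -3.96, -4.32, -4.95 and -2.95 in control, -5.69, -5.65, -5.88 and -5.97 in bur, and -4.50, -6.44, -5.86 and -6.23 in laser. All bur arrays lay below all control arrays, whereas laser replicate 1 lay within the control range. The difference was -1.71 for laser (SE 0.45, adjusted p = 0.025, limma) and -1.75 for bur (SE 0.45, adjusted p = 0.0183). With normexp it was -0.70 and -0.96, both past the threshold. The laser call passed in 7 of 12 fits with 1 array left out and was lost without control replicate 1 or 4 or laser replicate 2, 3 or 4, with an adjusted p up to 0.0693. The bur call passed in 11 of 12, with 0.0501 without control replicate 1.

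The promoter windows of both falling genes, 250 bases before the start in RefSeq's GRCr8 table, are shown with each CG dinucleotide in capitals, since Hox promoters are known as CpG-rich Polycomb targets.
Hoxa7, GRCr8 chr4:82648242-82648491, minus strand: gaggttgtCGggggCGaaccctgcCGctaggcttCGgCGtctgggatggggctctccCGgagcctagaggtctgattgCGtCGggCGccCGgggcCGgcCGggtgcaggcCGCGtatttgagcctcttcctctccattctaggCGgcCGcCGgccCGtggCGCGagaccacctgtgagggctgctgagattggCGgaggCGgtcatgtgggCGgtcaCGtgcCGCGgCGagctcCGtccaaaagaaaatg
Hoxd12, GRCr8 chr3:79984856-79985105, plus strand: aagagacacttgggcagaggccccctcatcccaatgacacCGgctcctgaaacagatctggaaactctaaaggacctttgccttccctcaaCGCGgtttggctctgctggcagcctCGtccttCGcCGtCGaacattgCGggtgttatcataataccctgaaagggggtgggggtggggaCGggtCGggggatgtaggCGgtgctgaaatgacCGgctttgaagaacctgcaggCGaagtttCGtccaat
Hoxa7 has 28 CG dinucleotides in this window and Hoxd12 has 14. Over the 18 of 36 Hox genes found in the table the median was 20, with a range of 3 to 39, against 6 over 27457 genes. It was 20 both for the 7 Hox genes with a window that were tested here and for the 11 that were not, so median CG content did not separate these. The 7 were Hoxa7 and genes of the D cluster. Hoxb1 and Hoxc4, both untested, were the only B and C genes with a window, so tested B and C genes, Hoxc5 included, are not covered. The letters CCAAT, on either strand, were in 10 of the 18 Hox windows (55.6%), those of Hoxa7 and Hoxd12 among them, and in 34.3% of all windows.

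Markers of blood-forming cells moved with the same arrays. Of 9 measured erythroid markers, all 9 fell after each treatment, and their summed signal was 77.1 to 353 times the 75th percentile in control, 14.6 to 73.2 in bur and 23.0 to 75.9 in laser. Control replicate 3, the lowest of the control arrays for Hoxa7 and Hoxd12, also had the lowest erythroid sum of the 4, 77.1, and laser replicate 1, the highest of the laser arrays for both genes, had the highest laser sum, 75.9. These 2 arrays also lay next to each other on the first principal component of all genes, at -6.67 and 7.43. Their place was thus not particular to these markers. Of 9 haematopoietic progenitor markers, 2 fell after laser (log2 differences of -1.25 for Kit and -1.98 for Tal1) and 3 after bur, among them Kit (-1.27) and Tal1 (-2.25), with a summed signal of 2.56 to 7.83 in control, 1.12 to 2.35 in bur and 1.44 to 3.22 in laser. Neutrophil markers fell in 7 and 6 of 11, mast cell markers in 5 and 5 of 5, and megakaryocyte markers in 1 and 3 of 4, for laser and bur in that order, beside 13% and 16.2% of all genes tested that fell. Every listed erythroid and progenitor marker on the array was well above background on some array; of the neutrophil list, Ltf was on none. The part of blood-forming cells in the Hoxa7 and Hoxd12 results was not tested, and in bulk RNA fewer cells of a type and less RNA per cell cannot be told apart.

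**Figure D2:**
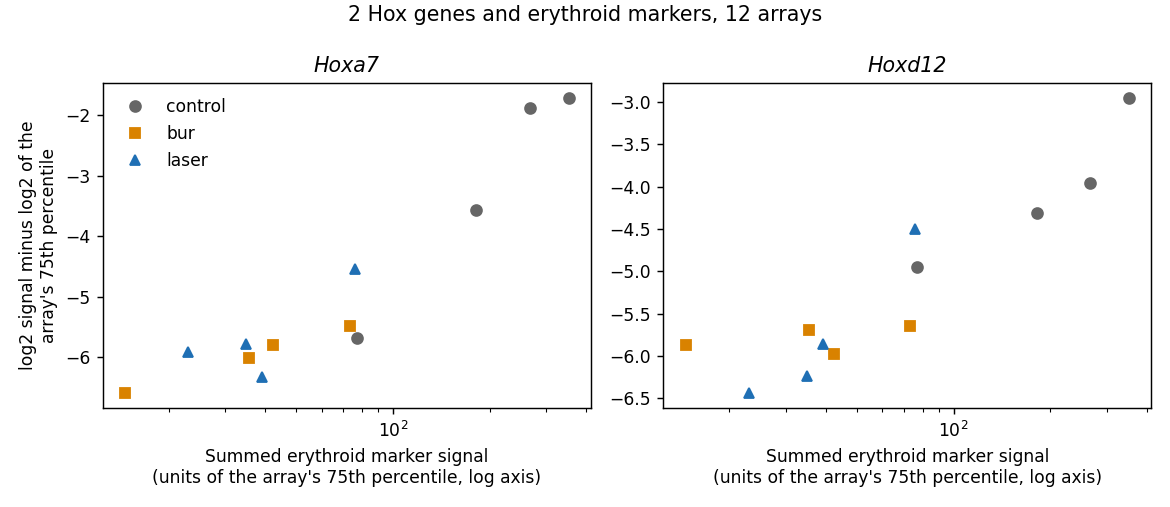
Level of Hoxa7 and Hoxd12 (vertical axes, log2 relative to the array's 75th percentile) against the summed signal of 9 erythroid markers (horizontal axis, log scale) on the 12 arrays. In both panels the 3 control arrays with the highest marker sum lie at the top right. Control replicate 3 (77.1), laser replicate 1 (75.9) and bur replicate 2 (73.2) are close on the horizontal axis. In that order they stand at -5.68, -4.54 and -5.49 for Hoxa7, and at -4.95, -4.50 and -5.65 for Hoxd12.

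Hoxc5, a central gene of the C cluster, was the only one of the 13 called higher. Its levels were -9.0, -7.98, -8.27 and -7.78 in control, -7.17, -7.00, -7.12 and -6.54 in bur, and -6.09, -7.07, -6.35 and -6.33 in laser. Every treated array lay above every control array, but no control array had the probe well above background, so its difference is only a bound. The probe passed the filter through the treated arrays alone, 4 bur and 4 laser. Its calls therefore come from a gene let in by the groups where it was high, and are no separate support for a rise. Hoxc5 was at least 1.71-fold higher after laser ablation (fitted log2 difference 1.80, adjusted p = 0.00474, limma) and at least 1.21-fold higher after bur drilling (1.30, adjusted p = 0.0106). The bound sets the treated mean against a control mean in which no array's value is taken below the dimmest probe that passed the background call there. A probe that fails the call can lie above this floor, as Hoxb2 did on control replicate 2 (-6.54, floor -6.73). Each at-least fold here and below therefore holds for this floor only. The Hoxc5 means, -6.46 in laser and -6.96 in bur, lay below the common level of -6.30. Both calls held with each array left out in turn, under the same filter. With normexp neither did: the difference was 0.08 for laser (adjusted p = 0.776) and -0.25 for bur (adjusted p = 0.217), where the median of all genes was itself shifted by -0.08 and -0.24.

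**Figure D3:**
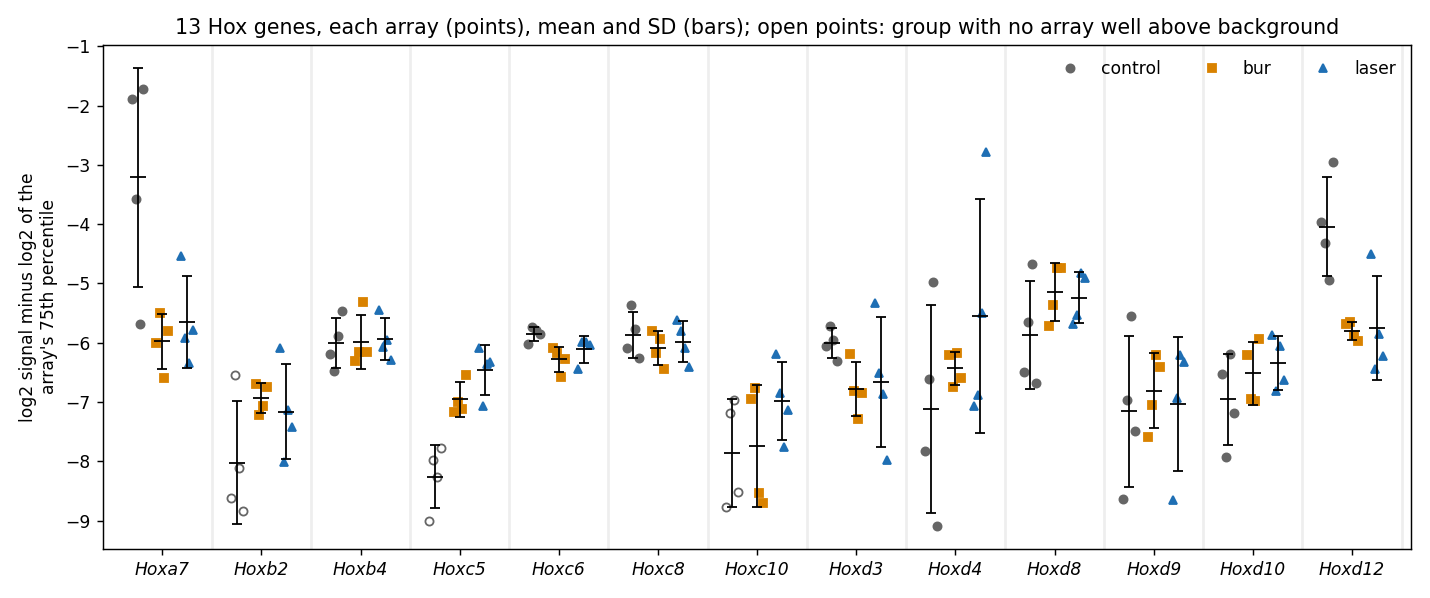
Levels of the 13 tested Hox genes on each array (points), with the mean and SD of the 4 arrays of a group (bars); the vertical axis is log2 signal relative to the array's 75th percentile, and open points mark groups with no array well above background. Control values of Hoxa7 and Hoxd12 reach above the treated ones, Hoxc5 is lowest in control, and points of different genes come from different probes and are not to be compared.

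Hoxc6, a neighbour of Hoxc5 that acts in thoracic patterning, was read by 2 probes, and these differed. The probe that was brighter over all 12 arrays, though not in control, and whose sequence is given above, stood at -6.02, -5.74, -5.79 and -5.85 in control, -6.09, -6.17, -6.57 and -6.28 in bur, and -6.45, -6.00, -5.98 and -6.03 in laser. All bur arrays lay below all control arrays, yet the difference of -0.43 (SE 0.15) gave an adjusted p of 0.0555 (limma), and that of -0.26 for laser gave 0.216. Without laser replicate 1, which enters the fit through the shared spread, the bur difference passed (adjusted p = 0.0381), in 1 of 12 fits with 1 array left out. The other probe, A_44_P1107923, at chr7:141775172-141775231, stood at -4.60, -5.71, -7.03 and -5.02 in control, -7.50, -7.11, -8.26 and -6.63 in bur, and -5.83, -8.28, -8.24 and -7.56 in laser. Its differences were -1.89 after laser and -1.78 after bur, with adjusted p = 0.0515 and 0.0563 over all kept probes (limma). Its lowest control array was replicate 3 and its highest laser array replicate 1, as for Hoxa7 and Hoxd12. The mean of both probes fell, by -1.08 after laser (adjusted p = 0.0315) and -1.11 after bur (adjusted p = 0.0239).

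**Figure D4:**
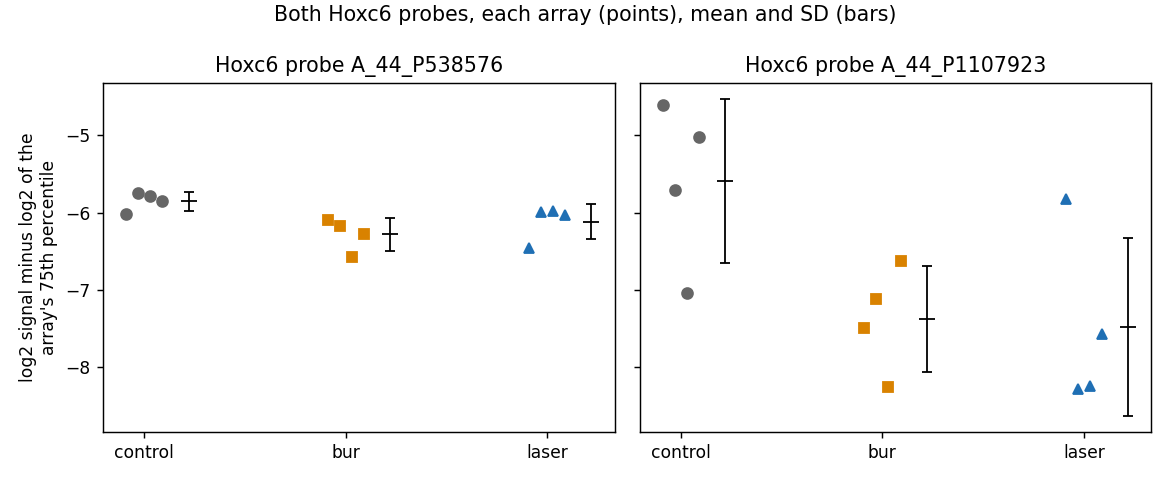
Levels of both Hoxc6 probes on each array (points) with the mean and SD of the 4 arrays (bars), log2 relative to the array's 75th percentile. The left probe spans less than 1 log2 unit over all 12 arrays, whereas the right probe is spread from -8.28 to -4.60.

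The other genes of the tested set did not pass the threshold in either comparison with control, with adjusted p-values up to 0.904 for laser and 0.963 for bur (limma). Hoxb2, an anterior gene of the hindbrain, was at -8.63, -6.54, -8.11 and -8.83 in control, -6.69, -7.21, -7.07 and -6.75 in bur, and -6.09, -8.01, -7.13 and -7.43 in laser. Its probe was not well above background in control, and it was at least 1.02-fold (laser, adjusted p = 0.214) and at least 1.20-fold (bur, adjusted p = 0.115) higher as a bound, neither past the threshold. Without control replicate 2, which was the highest control array, both differences passed, with adjusted p = 0.041 for laser and 0.0226 for bur (limma). For each comparison this was the only pass among the 8 fits with 1 array left out that kept the gene. As the probe was below that call in control, the fitted sizes are no measured folds.

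Hoxb4, which is known from blood stem cells as well as from the neck region, stood at -6.18, -6.48, -5.89 and -5.47 in control, -6.30, -6.16, -5.32 and -6.16 in bur, and -5.45, -6.08, -5.95 and -6.28 in laser. Hoxc8, a thoracic gene, stood at -6.08, -5.37, -5.77 and -6.26 in control, -5.80, -6.18, -5.93 and -6.45 in bur, and -5.62, -5.80, -6.09 and -6.40 in laser. The groups of both genes overlapped, and the 95% intervals of the laser and bur differences ran from -0.54 to 0.67 and -0.58 to 0.62 for Hoxb4, and from -0.62 to 0.40 and -0.73 to 0.29 for Hoxc8.

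Hoxc10, a posterior gene of the hindlimb region, stood at -8.77, -7.18, -6.96 and -8.52 in control, -6.95, -6.76, -8.54 and -8.71 in bur, and -6.19, -6.85, -7.76 and -7.14 in laser. It was well above background on no control array and on 2 arrays of each treated group, and its groups overlapped. As a bound it was at least 1.11-fold higher after laser (adjusted p = 0.267), which did not pass the threshold, and no bound is given for bur.

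Of the D cluster, Hoxd3, an anterior gene, stood at -6.06, -5.71, -5.95 and -6.31 in control, -6.19, -6.81, -7.29 and -6.85 in bur, and -5.32, -6.50, -6.87 and -7.98 in laser. Its control arrays were close together and its laser arrays spread over more than 2 log2 units. The differences were -0.66 for laser (adjusted p = 0.294, limma) and -0.77 for bur (adjusted p = 0.212). Of 12 fits with 1 array left out, the laser difference passed in 1, without laser replicate 1 (-1.11, adjusted p = 0.0438). Across these fits its adjusted p reached 0.684.

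Hoxd4, a central gene, stood at -7.83, -6.60, -4.98 and -9.09 in control, -6.21, -6.74, -6.18 and -6.60 in bur, and -7.07, -6.88, -5.49 and -2.78 in laser. Laser replicate 4 and control replicate 3 were the brightest arrays, and the spread made the intervals wide: the laser difference was 1.57 (95% interval -0.54 to 3.68) and the bur difference 0.69 (95% interval -1.41 to 2.80). Hoxd8, its neighbour, stood at -6.49, -5.65, -4.67 and -6.68 in control, -5.72, -5.36, -4.75 and -4.74 in bur, and -5.68, -5.53, -4.83 and -4.92 in laser. With all arrays the laser and bur differences of Hoxd8 were 0.63 (adjusted p = 0.278, limma) and 0.73 (adjusted p = 0.206). Control replicate 3 was the brightest array of the 12 for Hoxd8. Without it these differences passed (1.03, adjusted p = 0.0352, and 1.13, adjusted p = 0.024). For each comparison this was the only 1 of 12 fits with 1 array left out that passed.

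Hoxd9, a posterior gene of the trunk and limb, stood at -8.63, -6.96, -5.55 and -7.48 in control, -7.60, -7.05, -6.20 and -6.41 in bur, and -8.65, -6.94, -6.21 and -6.32 in laser. Hoxd10, its neighbour, stood at -6.53, -7.93, -6.19 and -7.18 in control, -6.21, -6.94, -6.99 and -5.93 in bur, and -5.88, -6.82, -6.05 and -6.62 in laser. In control bone replicate 3 was the brightest array for Hoxd4, Hoxd8, Hoxd9 and Hoxd10, the reverse of its place for Hoxa7 and Hoxd12. The groups overlapped for both genes, with adjusted p = 0.904 and 0.256 for laser and 0.726 and 0.409 for bur (limma).

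**Figure D5:**
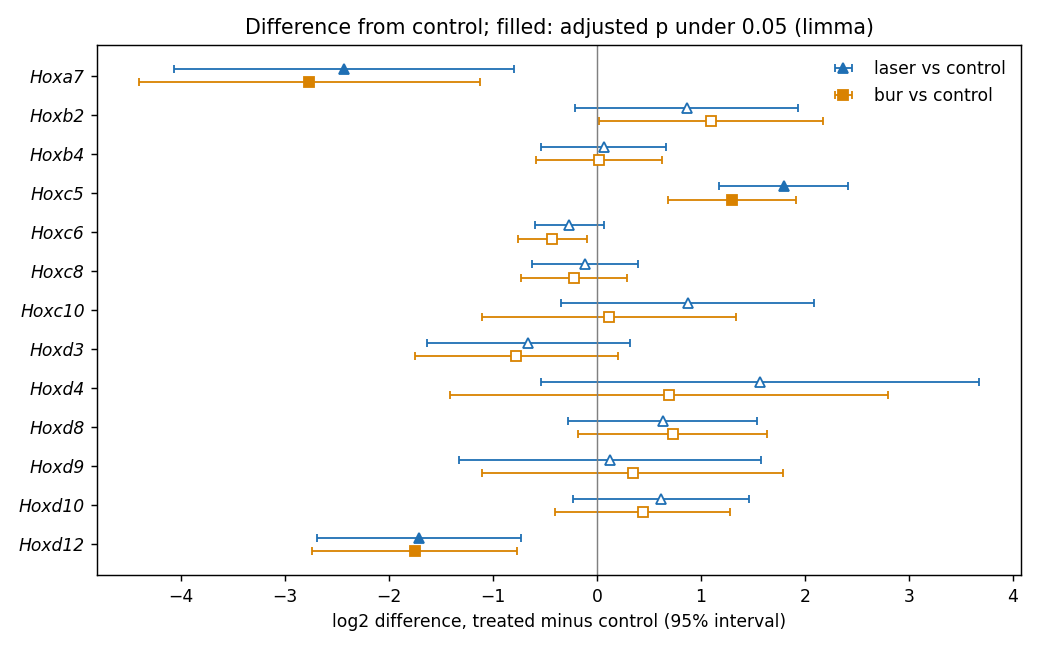
Log2 difference from control with its 95% interval (horizontal axis) for the 13 tested Hox genes, laser as triangles and bur as squares, filled where the adjusted p was under 0.05. Filled points are those of Hoxa7, Hoxc5 and Hoxd12 in both comparisons, and the interval of Hoxd4 is among the widest.

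No Hox gene passed the test between laser and bur. In laser against bur, limma called 0 of the 13 Hox genes and 0 of 22718 genes (0%), and at an unadjusted p under 0.05 it called 0 Hox genes and 574 genes in all (2.53%). Values did not overlap between laser and bur for 0 of the 13 (2.15% of all genes). The smallest Hox p was that of Hoxc5, 0.50 higher after laser than after bur (95% interval -0.12 to 1.12, unadjusted p = 0.105). For Hoxa7 the difference was 0.33 (95% interval -1.31 to 1.97), and for Hoxd12 it was 0.04 (95% interval -0.94 to 1.02). The intervals do not show that laser and bur act alike on these genes.

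In the authors' deposited table of comparisons, 8 Hox probes of 7 genes were listed. The authors' deposited table gave Hoxa7 a log2 change of -1.40 (adjusted p = 0.0265) for laser and -1.56 (0.0159) for bur. It gave Hoxd12 -0.89 (0.0254) and -0.93 (0.0194), and the Hoxc6 probe A_44_P1107923 -0.54 (0.0332) and -0.56 (0.0263), again from the authors' deposited table. The other 5 probes, of Hoxb4, Hoxc6, Hoxc8, Hoxd4 and Hoxd8, did not pass 0.05 in the authors' deposited table, and Hoxc5 is not among the 8.

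The partners and regulators of Hox proteins were measured more broadly; their counts of called genes, and those of the lists after them, stand beside the 22.3% (laser) and 26.2% (bur) called among all genes tested. All 9 listed cofactors were tested, and 1 rose and 1 fell in each comparison: the riser was Meis3, a homeodomain cofactor, which rose by 1.26 after laser (adjusted p = 0.0154, limma) and 0.96 after bur (0.0257). Of 18 genes of Polycomb complexes, which silence Hox clusters, and of the enzymes that remove their mark, 2 rose and 3 fell after laser, and 2 rose and 5 fell after bur. Among these, Cbx7 (-1.17 and -1.06) and Cbx2 (-1.01 in both), readers of the Polycomb mark, fell. Phc2, a subunit of the same complexes, rose by 0.78 and 0.68. Ezh1, a methyltransferase, fell in both (-0.72 and -0.76). A list of 7 tested genes held Trithorax and H3K4 methylation genes, which keep Hox genes active, and Dot1l, a histone methyltransferase of another site. Of these, 1 fell after laser and 2 after bur: Dot1l (-0.68 and -0.86) and, after bur, Men1 (-0.47). The medians of these lists were -0.20, -0.03 and -0.19 for laser and -0.23, -0.10 and -0.29 for bur, beside 0.017 and -0.0001 for all genes.

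Retinoic acid and Cdx proteins act on Hox genes in the embryo. Of 10 tested genes of that list, 1 rose and none fell in each comparison, Crabp2, a retinoic acid carrier, by 2.26 (adjusted p = 0.0357, limma) and 2.60 (0.0187). Among 17 tested genes that flank the Hox clusters, 1 rose after laser, and 2 rose and 1 fell after bur. Evx1, the gene beside the A cluster, was at least 1.37-fold higher after laser (adjusted p = 0.0397), being well above background on no control array and on 2 laser arrays. Like Hoxc5, Evx1 passed the filter through treated arrays alone. After bur, Cbx1 rose by 0.60 and Mtx2 by 0.51, and Calcoco1 fell by 0.58.

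Factors that pattern the skull and factors of the axial skeleton and limbs were listed side by side. Of 26 tested skull factors, 5 rose and 4 fell after laser, and 1 rose and 5 fell after bur (median 0.45 and 0.32). Tfap2b, a neural crest factor, fell, with log2 differences of -2.56 after laser and -2.75 after bur. Alx1 (-1.54 and -1.51), a homeodomain factor of the frontonasal skeleton, fell in both as well. Prrx1, a mesenchymal homeodomain factor, rose by 1.33 in both. Of 9 tested axial and limb factors, 1 rose after laser, and 1 rose and 2 fell after bur (median -0.22 and -0.33). Pax1, a factor of the vertebral column, was not well above background in control and was at least 6.52-fold higher after laser (adjusted p = 0.00107, limma) and at least 8.19-fold higher after bur (adjusted p = 0.000794). Pax1, too, passed the filter through treated arrays alone. Pitx1, a factor of the hindlimb and jaw, fell by 0.78 after bur, and Nkx3-2, a factor of the axial skeleton, by 0.55.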

How the data were processed

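Each array's scanner output, deposited as linear spot intensity, came from Agilent Feature Extraction 11.0.1.1 per the submitters' processing notes and per the file headers, with probe positions on rn4. A table of log2 values and 3 tables of comparisons, with log2 changes and p-values, were deposited too; how the authors made them is not given here. The flag for a spot well above background is a deposited column of the same scanner output.

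Spots of a probe were averaged, no spot was saturated, and log2 processed intensities were set relative to the 75th percentile of each array's non-control spots. Probes well above background on at least 4 of 12 arrays were kept, the brightest for each gene name, giving 22718 genes from 29775 probes. Differences were tested two-sided with limma 3.58.1 in R 4.3.3 (lmFit and eBayes, all 12 arrays, a mean per group, 0.05 after Benjamini-Hochberg). The number of arrays limits the precision. Members, lists and the naming rule were chosen with earlier results of these data known: every tested Hox gene is named, and from other lists up to 4 passing genes of largest change for each comparison. Some genes that this takes are not reported here. Other lists held markers of osteocytes, B, T, mast and endothelial cells, megakaryocytes, macrophages, muscle, fat, keratinocytes and neural cells. Alternatives were other background corrections, scalings, filters, probe rules, a replicate block, array weights and leaving out each array.

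Deviations of arrays with the same number from the means of their groups correlated at 0.34, 0.18, 0.22 and 0.13 for laser and control, 0.25, 0.24, 0.16 and 0.34 for laser and bur, and 0.28, -0.05, 0.28 and 0.08 for bur and control. In the first 2 sets every value was over the highest between arrays of different numbers, but by little. The lowest was 0.126 against 0.125 for laser and control, and 0.158 against 0.143 for laser and bur. In the last set the highest between different numbers was 0.321. Any pairing thus rests on these values, not on a label. The tests reported above used no pairing, and the replicate block was an alternative.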

Additional observations from a re-analysis of the deposited data

Results flagged for a closer look

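In 58 groups of 4 arrays, 2 held an array that stood apart from the rest of its group (gap to the nearest other array over the range of the group); chance gives this in about 1 in 20 groups. On bur replicate 3, Hoxb4 was at -5.32, where the others were at -6.30 to -6.16. On laser replicate 1, the Hoxc6 probe that was brighter over all arrays was at -6.45 and not well above background, where the others were at -6.03 to -5.98.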

How the results depend on the processing

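Results were recomputed under each alternative, with the all-genes table refitted. In laser against control, 3 Hox genes were called with all arrays; it was 1 when only these groups were fitted, and 1 to 4 with 1 array left out, falling to 1 without control replicate 1 or 4 or laser replicate 2, 3 or 4. In bur against control the count of 3 became 6 (0 higher, 6 lower) with normexp, 5 without the filter on dim probes, and 1 to 4 with 1 array left out (1 without control replicate 1). Calls over all genes moved too. For laser, 2103 higher and 2958 lower of 22718 became 651 and 1107 with only these groups. Without control replicate 1 they were 448 and 798 of 22605. For bur, 2270 and 3678 became 1647 and 6286 with normexp, and 2108 and 5750 of 34912 without the filter. With normexp, bur against control reversed for Hoxc5 (-0.25) and for Hoxc10 (-0.38), with the median of all genes at -0.24. With the replicate block the counts were 3, 3 and 0 for laser against control, bur against control and laser against bur, as without it, and it changed no call of a named Hox gene. With the weaker detection flag of the scanner software, detected Hox genes in control, bur and laser were 22, 28 and 25. These were 61.1%, 77.8% and 69.4%, against 72.3%, 79.4% and 76.3% of all gene names. The gap to all genes was thus smaller with this flag. When 1 array of 4 sufficed, they were 12, 21 and 18 (33.3%, 58.3% and 50%, against 64.8%, 71.5% and 68.7%). With 1 level for all arrays, chosen after seeing the data, they were 6, 6 and 6 (16.7% each, against 56.5%, 56.3% and 56.5%). In bur they were 7 (19.4%, against 57.1%) when every probe of a gene had to be detected. Another alternative chosen after seeing the data took the less bright Hoxc6 probe for that gene, which was then called for laser (-1.89, adjusted p = 0.0496, limma) and not for bur. The cause was not tested in any of these cases. With array weights, Hoxd10 was called for laser (1.14, adjusted p = 0.0408). Among the differences between groups, settings on a gene's several kept probes could move Hoxc6 only. Signal near background limits the 13 tested genes to differing degrees. Of them, 3 (Hoxb2, Hoxc5 and Hoxc10) passed the background call on no control array, whereas Hoxa7, Hoxc8 and Hoxd12 passed it on all 12 arrays. On control replicate 4 Hoxa7 and Hoxd12 stood at -1.71 and -2.95, but their treated values went down to -6.59 and -6.44.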

Other observations

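Further cell type markers were measured on the same arrays. Of 5 tested osteocyte markers, 4 rose after laser and 1 after bur, among them Phex by 1.62 and Dmp1 by 1.56 after laser (adjusted p = 0.01 and 0.0176, limma). Of 6 macrophage markers, 2 rose after laser and 4 after bur. Of 6 T cell markers 4 fell in each comparison and 1 rose after bur, of 10 B cell markers 3 fell in each, and of 5 adipocyte markers 4 fell in each. Of 7 endothelial markers 1 and 2 fell, of 5 neural markers 1 fell in each, and of 7 skeletal muscle and 4 keratinocyte markers none passed the test. These counts, too, stand beside 9.26% (laser) and 9.99% (bur) of all genes tested that rose and 13% and 16.2% that fell. Of 7 osteoblast markers 3 rose after laser and 1 after bur.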
